A study of Mus musculus with 4 samples.

Results

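Of 80881 ATAC-seq peaks in a mouse lung adenocarcinoma line, 675 (0.835%) were weak in cells with a Malat1 guide and stood at 2-fold or more above that level in cells with a luciferase guide. These peaks, called members here, were chosen from the authors' 2 group means alone: the log2 mean with the Malat1 guide had to be under 4.5, which is 22.6 normalized reads, and the difference between the log2 means had to be -1 or less. They are weak, mostly intergenic or intronic windows assigned to 604 genes. Few were nearly lost: the median member kept 40.8% of its reads in luciferase-guide cells. The members therefore go by the rule that chose them, and because that rule used this contrast, their own levels, differences and calls are descriptions that support nothing further.

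The study asked whether raised Malat1 alters chromatin accessibility. The group mA2 dRNA carried a guide to Malat1 and the group Con dRNA a guide to luciferase, which the mouse genome does not encode, with 2 biological replicate cell samples each. Both groups were KPC cells, a single line made from a KP mouse lung tumour that received SpCas9 by lentivirus and was selected with puromycin, and in both groups CRISPR activation was run from the lenti-SAM-Hygro vector. Whether the replicates were separate transductions is not stated in the labels, so the authors' p-values may cover a spread that is partly technical. The table heads its group columns dmA12 and dLuc. They were read as mA2 and Con because the series holds a single contrast.

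ATAC-seq uses a transposase that cuts and tags DNA where it is not wrapped tightly in nucleosomes, so a peak marks open DNA such as a promoter or an enhancer. Promoters of widely used genes are open in most cells, while distal enhancers differ between cell types and states. Malat1 is an abundant long noncoding RNA kept in the nucleus, associated with nuclear speckles and with metastasis of lung cancer.

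Values are group means of normalized reads, as the authors computed them, in mm10 coordinates. They carry no error here, since 4 columns of per-library values have names that match no sample and were not used. Over all peaks the median was 76.3 reads with the Malat1 guide against 69.2 with the luciferase guide, with a median log2 difference of 0.09. A peak is called, or said to have fallen or risen, where the authors' deposited table listed an adjusted p under 0.05, and the sources used here do not name the test behind it. Among markers of the labelled tissue, 5 of 6 epithelial genes (Cdh1, Krt8, Krt18, Krt19 and Grhl2, but not Epcam) had a promoter peak. A promoter peak was found for 1 of 8 leukocyte genes (Csf1r), 1 of 5 endothelial genes (Kdr) and 1 of 5 fibroblast genes (Pdgfrb). Summed over each marker list's peaks, reads in Malat1-guide cells against luciferase-guide cells were 11914 against 10458 for epithelial genes and 1290.4 against 1461.6 for leukocyte genes. The sums were 2732 against 1718 for endothelial genes and 1685 against 1378 for fibroblast genes. Whether other cells had a part in the results was not tested.

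For 3 genes whose start site lay under a member, the upstream bases that the peak covered are shown. En1 and Ank2 are given as stretches with many CpG dinucleotides, and Aspg as one with few. They are RefSeq sequences of GRCm38.p6, written 5′ to 3′ on the gene's strand and ending at or before its annotated start, and capitals mark motif matches on either strand. En1, whose promoter member was called lower, is shown at chr1:120602237-120602486 on the plus strand. Ank2 is shown at chr3:127499116-127499316 on the minus strand and Aspg at chr12:112106572-112106682 on the plus strand.
En1: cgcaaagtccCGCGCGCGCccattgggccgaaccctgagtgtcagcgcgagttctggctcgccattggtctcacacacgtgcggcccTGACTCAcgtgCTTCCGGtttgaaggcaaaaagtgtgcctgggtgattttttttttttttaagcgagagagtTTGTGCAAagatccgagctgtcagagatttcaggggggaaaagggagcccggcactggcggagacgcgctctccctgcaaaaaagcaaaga
Ank2: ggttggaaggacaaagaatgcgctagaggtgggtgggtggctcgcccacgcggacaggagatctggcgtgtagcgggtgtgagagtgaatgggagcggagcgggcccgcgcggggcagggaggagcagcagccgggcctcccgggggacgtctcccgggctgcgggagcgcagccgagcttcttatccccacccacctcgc
Aspg: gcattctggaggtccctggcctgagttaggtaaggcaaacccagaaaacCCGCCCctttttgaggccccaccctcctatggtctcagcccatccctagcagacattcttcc
The En1 stretch held 19 CpG dinucleotides and matched AP-1 (TGANTCA), ETS (CCGGAAG), C/EBP (TTGCNCAA) and NRF1 (GCGCNNGCG) once each, with no overlap between the matches. Of 32851 RefSeq promoter windows, 7.81% held the AP-1 letters, 8.86% the ETS letters, 2.94% those of C/EBP and 12.1% those of NRF1. The Ank2 stretch, with 19 CpG dinucleotides, held no match to any of 17 motifs searched. Aspg, with 1 CpG dinucleotide, matched SP/KLF (GGGCGG) once, and 35.7% of all windows held these letters at least once. The windows run between 250 bases before and 50 after a start. They are longer than the stretches shown, so the shares are not like for like with them. A match describes letters, not a bound site.

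In reads, members had a median of 14.5 (quartiles 10.9 and 17.6, range 1.74 to 22.6) in Malat1-guide cells and 36.5 (quartiles 28.9 and 44.9, range 8.57 to 137) in luciferase-guide cells. The median log2 difference was -1.29, with quartiles of -1.60 and -1.12. What remained with the Malat1 guide ran between 8.06% and 50.0% of the luciferase level, with quartiles of 33.02% and 46.1%. It was 25% or less in 61 members. In absolute terms 26 members held under 5 reads and 127 under 10. The rule thus gathered mostly small peaks near the 2-fold limit, with a short tail of nearly emptied ones.

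Of the 675 members, 76 (11.3%) were called lower in the authors' deposited table, against 0.507% of all peaks (410) called lower and 2.23% (1801) called higher. An unadjusted p under 0.05 was listed for 423 members (62.7%), against 2.85% of all peaks that were lower at that level. These counts follow from the choice of members. Calls over all peaks leaned to higher accessibility: 81.5% of them were higher, or 66.3% after the differences were centred on their median. The 76 called members were assigned to 74 genes. They had a median of 13.1 reads with the Malat1 guide against 55.9 with the luciferase guide, a median 4.36-fold lower level. All members had a median 2.45-fold lower level. No member with under 26.7 luciferase-guide reads was called, and the strongest uncalled member had 69.5.

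**Figure D1:**
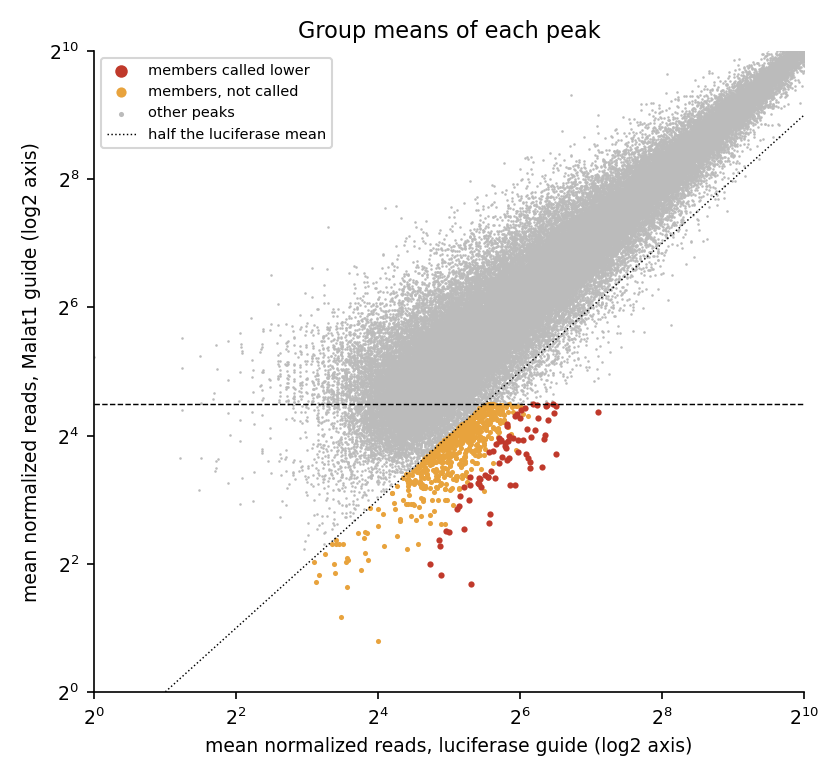
Mean normalized reads of each peak with the Malat1 guide (vertical) against the luciferase guide (horizontal), both on log2 axes that leave out peaks stronger than the upper end. Red points are the 76 members called lower, orange points the other 599 members and grey points other peaks, the dashed line is the limit of 22.6 reads, and the dotted line marks 50% of the luciferase mean.

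The members just inside the level limit, near Cidea, Acacb and Cdh22, held 22.6 reads each with the Malat1 guide, and the peaks just outside, near Glp1r, Vash2 and Myl1, held 22.7, 22.7 and 22.8. At the other limit, members near Mtss2, Ptf1a and Tmem238l lay just inside, at log2 differences of -1.0006, -1.0008 and -1.0013. Peaks near F930017D23Rik, Os9 and Ahr lay just outside, at -0.9997, -0.9992 and -0.9981. Nothing separates these neighbours but the limits.

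The called members with the smallest p lay near genes of varied function, most of them over 20 kb from the start site. The member near Kit, a receptor tyrosine kinase of stem and mast cells, lay 158 kb upstream, at 11.4 reads with the Malat1 guide against 79.3 with the luciferase guide. Intron 2 of Enpp6, a choline phosphodiesterase, held a member with 13.1 reads against 90.5. Near Zbbx, the strongest member of all held 20.6 reads against 137, and it lay 551 kb downstream of the assigned start. All 3 fell to between 0.144 and 0.150 of the luciferase level.

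Windows with the next smallest p showed a similar drop. The member near Mybpc1, a myosin-binding protein of skeletal muscle, held 12.6 reads with the Malat1 guide against 69.2 with the luciferase guide. The member near Slc4a3, an anion exchanger, held 11.3 against 70.5. For Ttc30a1, of the family of intraflagellar transport proteins, the values were 12.01 and 70.4 reads. Each was called lower in the authors' deposited table, and the Ttc30a1 window lay in an exon of a transcript of another gene.

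Of the remaining members with small p, the window in the last intron of Ap3b1, a subunit of the AP-3 vesicle adaptor, held 6.26 reads with the Malat1 guide against 47.4 with the luciferase guide. The first intron of Itprid1 held a member with 9.40 against 61.2 reads. Members near Ccdc201, Wdfy2, a protein of endosomes, and Grxcr1, a gene of sensory hair cells, held 13.1 to 19.5 reads against 68.1 to 80.6. These 5 windows were called lower too.

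Besides Ap3b1, Kit and Enpp6, above, the 8 lowest ratios took in weaker windows. An intronic member of the noncoding gene 4930432J09Rik held 3.21 reads with the Malat1 guide against 39.9 with the luciferase guide, the lowest ratio of all, 12.4-fold lower. A member 224 kb upstream of Spag17, a protein of the ciliary axoneme, held 3.57 against 29.7 reads. In the first intron of Ror2, a receptor for Wnt5a, one held 4.004 against 26.7. These were called lower. The window assigned to Rab10os held 1.74 against 16.05 reads (the authors' deposited table listed an adjusted p of 0.129), and was not called at this depth.

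By annotation the members were 44.6% distal intergenic (301; 95% Wilson interval 40.9 to 48.4, counting error only) and 43.3% intronic (292; 39.6 to 47.0). Promoter windows made up 3.41% (23; 2.28 to 5.06), against 16.8% of all peaks. The other 5791 peaks under the same level limit with the Malat1 guide had 4.30% promoter and 40.9% distal intergenic windows. Exons held 5.48% of members and 7.84% of those other weak peaks. The median member lay 34.8 kb from the assigned start site and 24.3% lay over 100 kb away, against 29.2 kb and 18.5% for the other weak peaks.

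**Figure D2:**
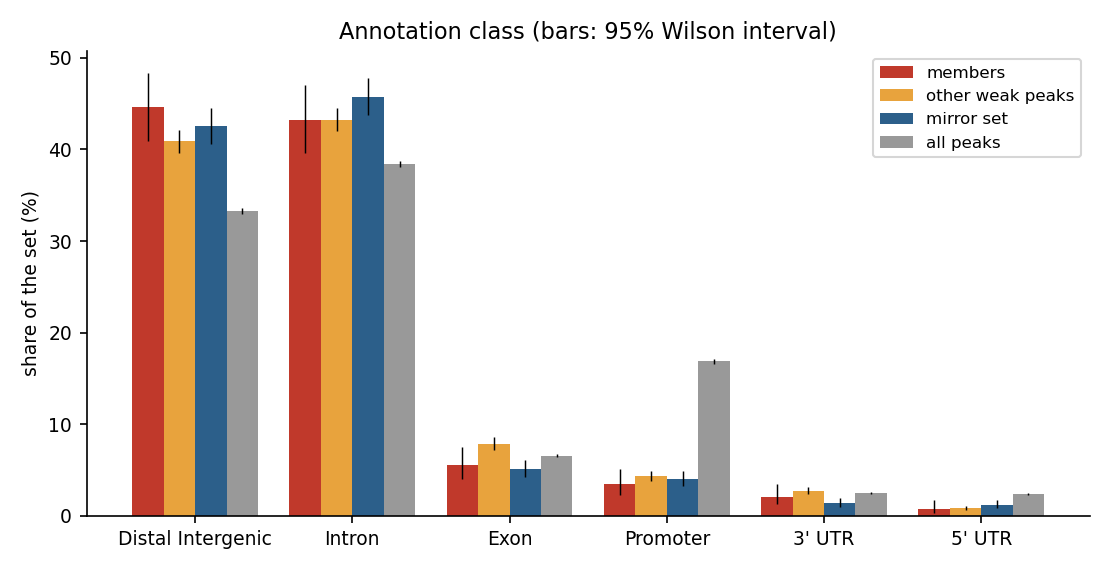
Share of peaks (%) in each annotation class for the members, the other weak peaks, the mirror set and all peaks, with 95% Wilson intervals. The mirror set holds 2340 peaks chosen the opposite way, under 22.6 reads with the luciferase guide and higher with the Malat1 guide by 1 or more on the log2 scale, and the promoter share is 3.41% in members, 4.30% in other weak peaks and 3.97% in the mirror set against 16.8% of all peaks.

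The mirror set was 2340 peaks, more than the 675 members, and 21.8% of it was called higher. Its peaks lay farther from start sites, at a median of 56.3 kb. By luciferase level, members made up 1.82% of peaks with 22.6 to 32 reads, 2.67% of those with 32 to 45.3 and 1.46% of those with 45.3 to 64. Above that they were 0.17% of peaks with up to 128 reads, and 1 of 11998 with up to 256. Over 45.3 luciferase-guide reads, the limit of 22.6 reads asks for more than a 2-fold drop. The smaller shares there therefore follow at least in part from the rule, and do not show that strong peaks changed less. By Malat1-guide level, the mirror set was 8.94% of peaks with 32 to 45.3 reads.

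Among the 23 members annotated as promoters a single one was called. It covered the start of En1, the homeobox factor of midbrain and limb patterning whose sequence is shown above, at 10.4 reads in Malat1-guide cells against 45.4 in luciferase-guide cells (the authors' deposited table listed an adjusted p of 0.0242). A member in exon 1 of En1 held 12.7 against 29.0 reads and was not called. The other 6 peaks assigned to En1 were not called, and 5 of them had the lower mean with the Malat1 guide.

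The other 22 promoter members were not called. Ank2, an ankyrin that anchors membrane proteins to the cytoskeleton, held 22.5 reads with the Malat1 guide against 47.6 with the luciferase guide. Shank3, a scaffold of excitatory synapses, held 20.3 against 42.8, and Nmnat2, an NAD-synthesizing enzyme of axons, 22.5 against 49.1. Aspg, an asparaginase, held 10.3 against 38.4 reads (the authors' deposited table listed an adjusted p of 0.0611). Cidea, a lipid droplet protein, held 22.6 against 46.9, and Spink2, a protease inhibitor of the testis, 12.6 against 34.2. Cdh22 (18.5 against 44.5), Mir6984 (19.8 against 48.3) and Tsbp1 (20.1 against 44.9) complete the 10 of smallest p. Chosen after the values were seen, 4 further developmental or immune regulators stood among the other 13: Irf4 held 13.9 against 30.6 reads, Dlx6 13.81 against 28.7, Emx1 13.1 against 27.2 and Msx2 11.6 against 24.1.

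Members overlapped 24 RefSeq promoter windows by 150 bases or more, windows that run between 250 bases before and 50 after a start. This set differs from the 23 promoter members above. Many of its windows belong to a gene other than the one the peak was assigned to, as under the peaks of Hgf and Pcdh18. Promoter members such as those of Cdh22 and Shank3 are not in it. Their median GC content was 53.5%, against 51.8% in 106 windows under other weak peaks and 61.7% in 8738 windows under any peak. The ratio of observed to expected CpG was over 0.6, as in CpG islands, in 8 of 24 (33.3%) member windows, in 24.5% of the windows under other weak peaks and in 73.3% of those under any peak. SP/KLF letters were found in 33.3%, 34.9% and 67.2% of these sets, and ETS letters in 8.33%, 1.89% and 18.8%. AP-1 letters were found in 3 member windows (12.5%), and in 13.2% and 7.20% of the other sets. The CTCF core (AGGNGGC) was found in 4 member windows (16.7%), and in 23.6% and 42.0%.

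In gene lists of known function, members were few, with 0.835% of all peaks as the level to set them beside, and with a median log2 difference of 0.09 over all peaks. Axon guidance genes held 9 members among 371 peaks (2.43%), none called, with a list median of 0.11. They were assigned to Plxna2, Plxna4, Robo1 and Ephb1, which are receptors, and to Sema4d, Sema3c, Sema3d, Efnb2 and Efna1, which are ligands. The Efnb2 window lay 829 kb from the assigned start. The Plxna2 window held 15.7 reads with the Malat1 guide against 48.0 with the luciferase guide, and the Efna1 window 20.2 against 52.4. Of the list's 371 peaks, members included, 4 were called lower and 11 higher. Of all peaks, 0.507% were called lower and 2.23% higher. Synapse and neuronal adhesion genes held 4 members among 245 peaks (1.63%, list median 0.22), assigned to Pcdh9, Grin2a, Lrrc4c and Gria4. The windows of Pcdh9, Grin2a and Lrrc4c lay 833, 551 and 1461 kb from the assigned starts. None of the 4 members was called, and 12 of the list's 245 peaks were called higher.

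The lung, gut and liver, and mesenchymal lists held 8 members. The lung list had 3 among 138 peaks (2.17%, list median -0.03), none called: Nkx2-1, the lung and thyroid homeobox factor, held 22.2 reads in an exonic window with the Malat1 guide against 47.7 with the luciferase guide. A window 36.1 kb downstream of the start of Foxa1, a pioneer factor of endoderm, held 11.6 against 32.3. One 39.8 kb upstream of Hopx held 19.6 against 43.6. Gut and liver genes had 2 among 76 peaks (2.63%, list median 0.05), both near Gata4. Mesenchymal genes had 3 among 208 (1.44%, list median 0.22). A pair 1 kb apart lay 119 and 118 kb upstream of Thy1, a surface glycoprotein of fibroblasts and neurons. The other lay 98.5 kb upstream of Twist2. Over all peaks of these lists, members included, 2 lung peaks were called lower and 6 higher, 2 gut and liver peaks lower and 4 higher, and 1 mesenchymal peak lower and 15 higher. In the whole set of peaks the shares were 0.507% lower and 2.23% higher. The called Thy1 window held 9.40 against 39.1 reads and the uncalled one 21.8 against 64.7.

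Immune and other lists held few members. Antigen presentation and interferon genes had 2 among 99 peaks (list median 0.10), an exonic window of Tap2, the peptide transporter of class I presentation, with 16.1 against 39.9 reads, and the promoter of Oas1a, with 8.01 against 20.4. One member each was found for Tnfsf18 among 203 peaks of inflammatory cytokines (list median 0.17), for Grhl1 among 173 of epithelial genes (0.12), for Hdac2 among 168 of chromatin modifiers (0.10) and for Laptm5 among 33 of leukocyte genes (0.03). None of these members was called. Over all their peaks, the calls were 1 lower and 2 higher for antigen presentation and interferon genes, 0 and 8 for cytokines, 0 and 5 for epithelial genes, 0 and 6 for chromatin modifiers and 1 and 0 for leukocyte genes. The shares to set beside these counts are 0.507% lower and 2.23% higher, over all peaks. No member was found among 149 chemokine peaks (list median 0.09), 152 of the NF-kB pathway (0.15), 311 of matrix genes (0.28), 154 of housekeeping and cell cycle genes (0.07), 108 of endothelial and fibroblast genes (0.20) or 66 of Malat1 and its neighbours (0.16), of which Malat1 had 13.

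Members lay together in places. Of the 675, 150 (22.2%) were within 100 kb of another and 97 within 50 kb, 46 genes held 2 members and 11 held 3 or more. Joined over gaps of up to 100 kb, 34 members formed 9 clusters of 3 or more. The fullest, with 7 members over 207 kb of chromosome 14 (63264523 to 63471437), took in windows of Gata4, a zinc finger factor of heart and foregut, and Fam167a. The B cell kinase gene Blk lies between them.

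In the Gata4 intron the first member held 7.47 reads with the Malat1 guide against 35.2 with the luciferase guide, and was called. A second, 70.7 kb upstream of Gata4, held 6.44 against 23.3 and was not. Near Fam167a 5 members held 11.7 to 20.3 reads against 32.4 to 65.8, and 2 of them were called. All 9 other peaks inside the cluster had the lower mean too, with a median difference of -0.92 and a range between -1.79 and -0.05.

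Stronger windows of this cluster that the rule left out fell as well. A peak 8.43 kb upstream of Fam167a held 30.5 reads with the Malat1 guide against 105 with the luciferase guide (the authors' deposited table listed an adjusted p of 0.00842). Downstream of Blk, 1 peak held 53.9 against 135 reads (the authors' deposited table listed an adjusted p of 0.0127). Its neighbour held 22.95 against 70.9 reads (0.0247 in the authors' deposited table). Just outside the cluster, the peak annotated to the Gata4 5′ UTR held 169 against 288 reads (the authors' deposited table listed an adjusted p of 0.0400). The Fam167a promoter peak held 25.2 against 60.8 reads and was not called (0.125 in the authors' deposited table).

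**Figure D3:**
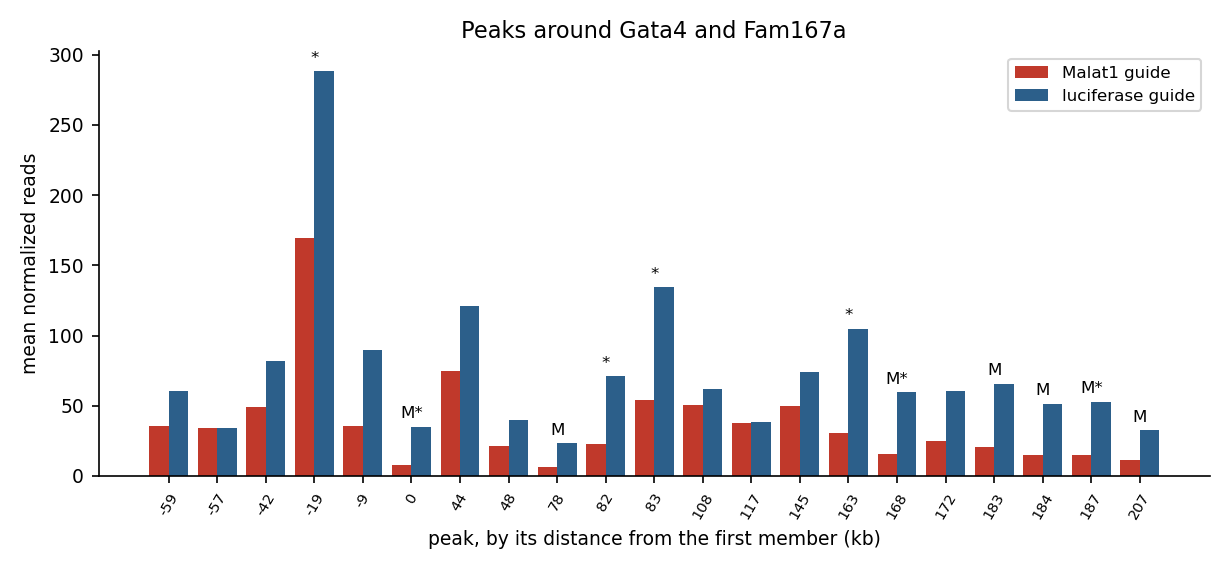
Mean normalized reads of each peak around Gata4 and Fam167a, ordered by distance in kb from the first member, with the Malat1 guide (red) left of the luciferase guide (blue). M marks the 7 members and a star a peak called lower; in 20 of the 21 peaks the red bar is the lower one, and at -57 kb the bars are 34.0 and 33.9 reads.

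Of the other clusters, 4 members in introns of Itprid1 lay within 41.9 kb, and 2 of them were called, with 9.40 and 16.2 reads with the Malat1 guide against 61.2 and 81.9 with the luciferase guide. The cluster at Tpsb2 and the calcium channel gene Cacna1h had 4 members, 1 of them called. Of its 4 other peaks, 2 had the lower mean, and their differences ran between -0.72 and 0.30. On chromosome X, 4 members near Btg1b, Btg1c and Rhox11 were not called. There 4 of 5 other peaks had the lower mean, with differences between -0.97 and 0.63. At Cdh22, a cadherin, 3 members and all 7 other assigned peaks had the lower mean. There a strong intronic peak held 182 against 481 reads (the authors' deposited table listed an adjusted p of 7.20e-06), and a promoter peak 64.6 against 141 (0.0448 in the same table). Clusters of 3 members each were also assigned to Tab2, Gm6578, Grip1os2 and 5730507C01Rik. The Tab2 members lay 268 to 276 kb upstream of its start, in an intron of a transcript of another gene. The Gm6578 members lay 157 to 277 kb upstream.

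Peaks near members tended to have the lower mean too. They come from the same libraries and contrast as the members, and the rule had already taken the weak, lower ones out of them. Of 2879 other peaks within 50 kb of a member, 61.9% had the lower mean with the Malat1 guide, against 38.7% of all 80206 other peaks, and their median difference was -0.10 against 0.09. Of the 2879, 72 (2.5%) were called lower and 15 (0.521%) higher in the authors' deposited table, while over all other peaks 334 (0.416%) were called lower and 1801 (2.25%) higher. The share with the lower mean was 81.6% within 2 kb (87 peaks), 65.4% at 2 to 10 kb (486), 60.4% at 10 to 50 kb (2306), 52.7% at 50 to 100 kb (2586) and 33.4% beyond 1000 kb (46116). Around other weak peaks the 50 kb share was 40.5% (23617 peaks), and around the mirror set 25.2% (8288). Each share left out the peaks of its own set. The other weak peaks, of which 69.1% had the lower mean, could therefore count near members but not in the 40.5%. The 61.9% and the 40.5% are thus not like for like. Neighbouring peaks are not independent replicates, and no test of these shares was run.

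**Figure D4:**
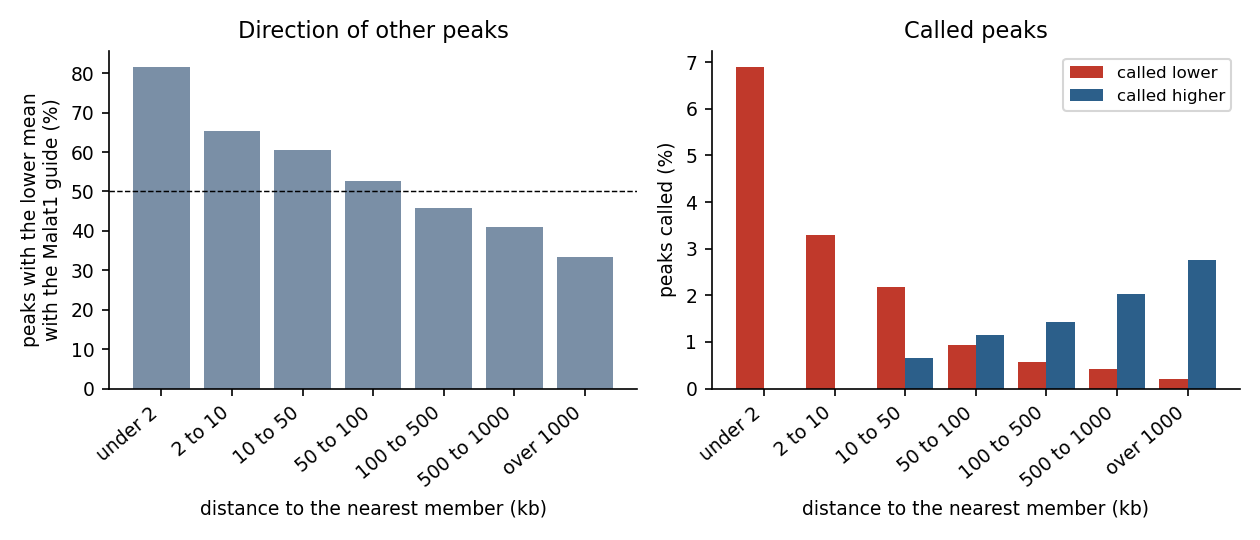
Left, share (%) of non-member peaks whose mean was lower with the Malat1 guide, by distance in kb to the nearest member, with a dashed line at 50%. Right, share (%) called lower (red) and called higher (blue) in the authors' deposited table; the left bars step down between 81.6% under 2 kb and 33.4% over 1000 kb.

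The same was seen by gene. Of 604 genes, 564 had 3940 other peaks, of which 56.2% had the lower mean. Of these peaks 75 (1.9%) were called lower, in 60 genes, and 43 (1.09%) higher, in 31 genes. Over all other peaks, 38.7% had the lower mean, 0.416% were called lower and 2.25% higher. At Galntl5, a GalNAc-transferase relative of the testis, the member held 6.88 reads with the Malat1 guide against 47.9 with the luciferase guide, and all 3 other peaks were called lower. The strongest change of these 3 was in intron 2, at 49.3 against 215 reads (the authors' deposited table listed an adjusted p of 1.73e-07). Kit had 2 of 3 other peaks called lower, an intronic one at 103 against 324 reads and an upstream one at 276 against 538, for which the authors' deposited table listed adjusted p of 0.00110 and 0.000190. At Enpp6, 1 of 13 other peaks was called, in the same intron 2 as the member, at 48.5 against 164 reads (the authors' deposited table listed an adjusted p of 0.00135).

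In some genes the stronger called peak lay beside a member that was itself not called. Sema3d, a secreted guidance factor, had an intron 5 peak at 53.2 reads with the Malat1 guide against 279 with the luciferase guide (the authors' deposited table listed an adjusted p of 2.02e-07), while its member held 19.5 against 40.1. At Tap2 an intron 5 peak held 134 against 397 reads (the authors' deposited table listed an adjusted p of 1.31e-07), while the promoter peak held 112 against 115 and was not called.

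Promoters of these genes mostly were not called. For 311 genes with a member away from the promoter, 366 promoter peaks that were not members were listed: 58.7% had the lower mean, 2 were called lower and 1 higher. Of all 13597 promoter peaks that were not members, these 366 included, 36.0% had the lower mean, 29 were called lower and 164 higher. With each chromosome centred on its own median, 69.1% of the 366 and 58.3% of the 13597 had the lower value. The 13597 thus changed direction, and the difference between the shares was smaller. The pair called lower were at Elfn1, a synaptic adhesion protein, at 73.3 against 232 reads (the authors' deposited table listed an adjusted p of 9.35e-06), and at Cdh22, above. The promoter of Fzd1, a Wnt receptor, rose to 450 reads with the Malat1 guide, against 218 with the luciferase guide (the authors' deposited table listed an adjusted p of 0.00216), and its member 269 kb downstream held 15.0 against 31.9.

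The members' share varied by chromosome. It was 2.43% of the peaks on X (45), 1.54% on 14 (39) and 1.48% on 3 (71), and 0.257% on 7 (12), 0.299% on 11 (18), 0.301% on 15 (12) and 0.349% on 16 (9). Among weak peaks, members were 16.9% on X and 15.7% on 14, against 4.196% on 7. The other peaks of each chromosome tended to move with this. Their median difference was -0.11 on X, 0.07 on 14 and -0.02 on 3, and 0.15 on 7, 0.10 on 11, 0.21 on 15 and 0.26 on 16. Chromosome 11 was thus near the median of 0.09 over all other peaks. Over 20 chromosomes, which share libraries and scaling, Pearson's r was -0.76 and Spearman's rho -0.72, as a description. Chromosome 13 had a share of 0.805% at a median of 0.24. What part such chromosome-wide differences had in the members was not tested. With each chromosome centred on its own median, 68.5% of the peaks within 50 kb had the lower value, against 50% by construction over all other peaks. In the same setting the share was 51.6% around other weak peaks, which was under 50% without centring, and 36.4% around the mirror set. Each set's own peaks were again left out.

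**Figure D5:**
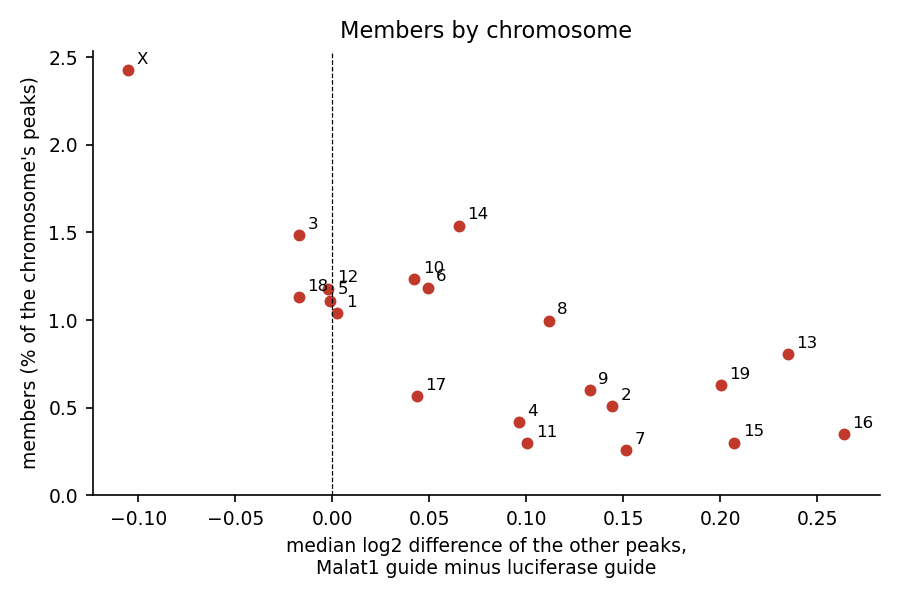
Members as a share (%) of each chromosome's peaks, against the median log2 difference of that chromosome's other peaks (Malat1 guide minus luciferase guide), 1 point per chromosome without Y. Chromosome X lies highest at 2.43% and a median of -0.11, and chromosome 16 lies at 0.349% and 0.26.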

How the data were processed

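ATAC-seq libraries of 4 samples, 2 for each guide, were read from the authors' deposited peak table. Per the submitters' processing notes, the build was mm10 and the tools were Bowtie2, MACS2, DiffBind, ChIPseeker, FastQC, Picard and deepTools, with no version or role given. Per the file headers, the authors deposited the log2 of mean normalized reads per group, p-values, adjusted p-values, the assigned gene, the annotation class and the distance from the start site. The sources used here do not say how libraries were scaled, how Tn5 ends were shifted, how peaks were called or which test gave the p-values, and each could move weak peaks such as these. Most of the peaks, all members included, were 401 bp windows.

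The 4 per-library columns match no sample label and were not used, so no depth per library, replicate spread or replicate test was computed, and the check of both libraries of a group was left out. Computed here were the members, read ratios from the deposited log2 means, overlaps, distances and shares (Python 3.11.15, pandas 2.3.3, scipy 1.17.1). The deposited adjusted p matched a Benjamini-Hochberg adjustment, with a largest gap of 7.40e-06. After centring, p was recomputed with the standard error that a peak's difference and deposited p-value imply, which is an approximation.

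The members and the 16 gene lists were chosen with earlier results of these data known. Peaks were named by a rule: the 12 members of smallest p (1 per gene, predicted models left out), the 8 lowest differences, the 10 promoter members of smallest p, up to 3 members per list, genes with several members and the peaks beside each limit. One peak that the rule names is not reported here. Other peaks of those genes, cluster neighbours and promoters called in member genes were chosen after their values were seen.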

Additional observations from a re-analysis of the deposited data

How the results depend on the processing

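The number of members was set by both limits: 427 peaks met a log2 mean limit of 4.0 and 903 one of 5.0, and 1124 met a difference of -0.8 or less and 210 one of -1.5 or less, while centring all differences on their median gave 857 and centring by chromosome, an alternative chosen after seeing the data, gave 804. Of the 76 called members, 70 kept their call when the test was limited to peaks with a mean of at least 20 reads, where 510 members were tested, 76 kept it and 15 were gained after median centring, and 70 kept it and 10 were gained after chromosome centring. Median centring gave 677 peaks called lower over the whole table, against 410. Among named peaks, the Aspg promoter (adjusted p 0.0457 after median centring), the second Thy1 window (0.0469 after chromosome centring) and an Ednra window (0.0455 after median and 0.0456 after chromosome centring) passed the threshold. The promoter share was 1.32% in the called members. The share of other peaks of member genes with the lower mean, 56.2%, was 61.9% for peaks within 50 kb whatever their gene and 61.8% after chromosome centring. The share within 50 kb was 61.3% when peaks under 2 kb away were left out. Chromosome centring turned the direction in 2 of the sets that members were compared with. The share with the lower value became 58.3% in all promoter peaks that were not members, against 36.0% as deposited. Around other weak peaks it became 51.6%, against 40.5%. Not run, for want of library values matched to samples, were the per-library fits by edgeR, DESeq2 and limma, the pseudocounts, each library left out in turn and the check that both libraries of a group agree. No paired analysis was possible because the per-library columns carry no replicate numbers. Low read levels limit these peaks: no member with under 26.7 luciferase-guide reads was called.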

Other observations

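A single member was assigned to the gene with the steepest called rises among the 604 genes that held members. Gm5099, a predicted gene model on chromosome 1, was assigned 14 peaks, of which 13 had a higher mean in Malat1-guide cells and 9 were called higher in the authors' deposited table. The 9 called peaks lay 105 to 176 kb downstream of its start, most of them annotated to introns of a neighbouring gene. The peak of smallest p, at 38241115 to 38241515, held 188 reads in Malat1-guide cells against 17.1 in luciferase-guide cells, an 11.0-fold higher level (the authors' deposited table listed an adjusted p of 4.29e-10). The next held 91.2 against 5.66 reads, 16.1-fold higher (the authors' deposited table listed an adjusted p of 1.43e-08). The Gm5099 member itself, at 38165650 to 38166050 and 33.6 kb downstream of the start, held 13.84 against 28.2 reads and was not called. This gene was named after its values were seen.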
